A study of Rattus norvegicus with 10 samples.

Results

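The mesothelial keratins and markers are 8 genes, Krt7, Krt8, Krt18, Krt19, Msln, Upk3b, Wt1 and Lrrn4, followed here in rat white adipose tissue. They were taken by symbol from the array's annotation, which gave 10 probe sets with exactly 1 of these symbols among the 31042 probe sets of the array. These 10 probe sets stand for 7 of the 8 genes, and Upk3b was not analysed here. Gene expression was measured in 10 male rats, 13 weeks old, on 1 expression array per animal. The noodle group of 5 rats (animals 1, 4, 7, 10 and 13) ate for 30 days a chow in which instant noodles and their seasonings made up 30% of the weight, with 26% of its energy from fat. Animals 2, 5, 8, 11 and 14 are the 5 control rats, which received a diet described as the same but lacking the seasonings. Intake was matched by pair-feeding, with a daily ration near 60 g for each kg of rat. The fat depot that was sampled is given only as white adipose tissue.

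Mesothelium is the thin cell layer that covers the serosal surfaces, among them the outer face of the fat depots in the abdomen. Its cells carry the keratin filaments of simple epithelia, a microvillous surface coated with glycoproteins, and the transcription factor WT1, which marks the layer from its development onward. Adipocytes, fibroblasts, vessels and blood cells are not known for these keratins or for mesothelin, so in a piece of fat tissue their transcripts are commonly read as coming from the serosal covering. The measurement was made on bulk tissue. A lower level can thus come from a smaller share of mesothelial cells in the sampled piece or from less RNA per cell. These cannot be told apart here.

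The deposited values are flat for most probe sets, and the mesothelial genes were among the exceptions. A probe set is called variable where its SD over the 10 arrays was above 0.01 and flat otherwise, which left 2607 variable and 28435 flat probe sets. Of the 10 mesothelial probe sets, 9 were variable and 1 was flat, the dimmer of the Wt1 probe sets, with an SD of 0.008. The lowest SD among the 9 others was 0.227, for the second Wt1 probe set. Msln, with an SD of 0.976, had the rank of 14 among all 31042 probe sets, and Krt19 had the rank of 67. The median SD of the variable probe sets was 0.191. The step that left most probe sets flat is not stated, and it may also have changed the size of the differences in the variable ones, so the log2 differences and folds below hold for the deposited values only.

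The labelled tissue was checked against marker lists, with the array's median as a landmark. A level below that median does not show that a gene was absent, since Krt7, Krt18 and Bnc1, which varied between animals, had mean levels of 5.84, 6.03 and 5.78 and lay below it too. Adipocyte markers, 18 of them measured, stood at a median log2 level of 12.01, with none below the array's median. The labels' extraction text speaks of brain, and 12 of 15 measured brain markers lay below the array's median, the highest being Mbp at 8.76. Of these 3 were variable, and 1 of them, the neuronal splicing factor gene Rbfox3 at a mean level of 5.84, had a Pearson r of 0.89 to the mean profile of the mesothelial genes defined below. Other epithelia that carry these keratins were looked for with marker lists. The 6 measured markers of epididymal epithelium had levels of 5.47 to 5.74 and the 6 of urothelium 5.43 to 5.85, all below the array's median and all flat. Of 14 measured pancreas markers 12 lay below the median, and 1 was variable, Cpa1, a digestive carboxypeptidase, at 6.65 to 7.79 in noodle rats and 6.65 to 8.0 in controls, with a Pearson r of 0.22 to the same profile. The array of control animal 14 had the lowest mean correlation with the other arrays, 0.9948 against 0.9959 to 0.9969 in the other 9. The same animal had the highest level in most of the mesothelial genes, and its part in the results is given with the leave-one-out values below.

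Krt8 and Krt18 form the basic keratin pair of simple epithelia, a type II and a type I chain that assemble together. Their genes are near neighbours on rat chromosome 7, with 1 other gene between them in the RefSeq table. Their promoters, from 250 bases before to 50 bases after the start in RefSeq's GRCr8 tables, are shown because these 2 genes had the smallest p-values of the 7 measured. Capitals mark matches to 4 motifs searched on both strands, the TATA box TATAAA, the GC box GGGCGG, the site GCGGGGGCG of the WT1 and EGR factors and the AP-1 site TGANTCA. The Krt8 window is chr7:135010290-135010589 on the minus strand and the Krt18 window is chr7:135035918-135036217 on the plus strand, each printed in the direction of its gene.
Krt8: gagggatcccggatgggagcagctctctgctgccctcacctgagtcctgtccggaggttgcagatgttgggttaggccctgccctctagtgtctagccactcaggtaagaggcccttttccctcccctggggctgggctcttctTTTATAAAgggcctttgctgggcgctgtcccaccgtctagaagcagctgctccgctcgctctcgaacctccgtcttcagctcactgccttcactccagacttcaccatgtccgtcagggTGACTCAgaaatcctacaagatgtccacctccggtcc
Krt18: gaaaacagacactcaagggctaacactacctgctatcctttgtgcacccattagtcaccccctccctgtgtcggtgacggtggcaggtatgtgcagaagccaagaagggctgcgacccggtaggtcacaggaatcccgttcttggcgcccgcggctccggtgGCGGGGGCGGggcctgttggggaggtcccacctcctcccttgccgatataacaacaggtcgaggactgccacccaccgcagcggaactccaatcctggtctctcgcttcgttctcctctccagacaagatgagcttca
The Krt8 window held TATAAA from -104 to -99, with an overlapping match on the other strand, and an AP-1 match at 14 to 20, counted from the start. From that start on the Krt8 letters read atg, a start codon, so its positions may be counted from the translation start. The AP-1 match would then lie in coding sequence. In the Krt18 window the first atg after the start comes near the window's end, so the 2 windows may not be counted from a like point. TATAAA was present in 14.2% and TGANTCA in 7.33% of the 33469 promoter windows in the table. The Krt18 window held GCGGGGGCG from -88 to -80, a motif found in 2.73% of the windows, overlapping a GC box from -84 to -79, found in 33.1%. The windows of Wt1, Lrrn4 and Upk3b held none of the 4 motifs. A match is a description of these letters and does not show that a factor was bound.

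Krt8 stood at 6.38, 7.17, 6.78, 6.74 and 7.20 in noodle rats 1, 4, 7, 10 and 13, against 7.09, 7.43, 7.53, 7.32 and 7.56 in control rats 2, 5, 8, 11 and 14. The groups overlapped only through noodle rats 4 and 13 and control rat 2, so that 3 of 5 noodle rats lay below every control. Krt8 averaged 6.85 ± 0.34 in noodle rats, against 7.39 ± 0.19 in control rats (SD, n = 5 each), a difference of -0.54 ± 0.17 (SE) on the log2 scale or 0.689-fold on the deposited scale. The unadjusted p was 0.012 in limma and 0.0238 in a two-sided exact permutation test. It did not pass after Benjamini-Hochberg adjustment over all probe sets, with a limma adjusted p of 0.993, and the difference stayed between -0.62 and -0.42 whichever animal was left out.

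Krt18, the type I partner, stood at 5.65, 5.90, 5.57, 5.70 and 6.23 in the same noodle rats, against 5.69, 5.92, 6.36, 6.53 and 6.76 in the controls. Here the highest 3 animals were controls 8, 11 and 14, and the rest overlapped. The difference was -0.44 ± 0.22 (limma adjusted p = 0.993, exact permutation p = 0.0794, n = 5 each). It grew to -0.755 ± 0.245 when the gap between the 3-prime and 5-prime probe sets for Actb and Gapdh entered as a covariate and shrank to -0.278 ± 0.265 with the hybridization controls as a covariate. The first of these measures reads RNA quality. It averaged 0.837 ± 0.0691 in noodle rats against 0.9495 ± 0.0844 in control rats (SD, n = 5 each, exact permutation p = 0.0476, not adjusted). Without single animals that exact permutation p ran from 0.0159 to 0.103. The hybridization controls stood at 9.93 ± 0.121 in noodle rats against 10.13 ± 0.198 in control rats (SD, n = 5 each, exact permutation p = 0.111). Their part in the keratin values was not tested beyond these fits.

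Krt7 and Krt19 are the other type II and type I keratins of the layer, both also found in ducts. Krt19 stood at 5.84, 6.39, 5.67, 6.41 and 6.77 in noodle rats 1, 4, 7, 10 and 13, against 5.49, 5.99, 6.42, 6.95 and 7.33 in control rats 2, 5, 8, 11 and 14. The control values enclosed those of the noodle rats on both sides. The difference was -0.22 ± 0.37 (limma adjusted p = 0.993, exact permutation p = 0.579, n = 5 each), and it was 0.00497 without control animal 14 and -0.455 without control animal 2. Krt7 stood at 5.78, 5.81, 5.26, 5.87 and 5.94 in the noodle rats, against 5.41, 5.70, 5.77, 6.24 and 6.63 in the controls. Noodle rat 7 was lowest of all 10 and controls 11 and 14 were highest. Krt7 differed by -0.22 ± 0.24 (limma adjusted p = 0.993, exact permutation p = 0.452, n = 5 each), and by -0.0456 without control animal 14 and -0.35 without control animal 2.

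Msln encodes mesothelin, a glycoprotein anchored on the mesothelial cell surface. It stood at 7.0, 7.82, 6.60, 8.02 and 8.24 in noodle rats 1, 4, 7, 10 and 13, against 6.11, 7.27, 7.94, 8.84 and 9.24 in control rats 2, 5, 8, 11 and 14. The lowest and the highest animal were both controls, and the range over all 10 animals was 3.13. The noodle group averaged 7.54 ± 0.71 and the control group 7.88 ± 1.25 (SD, n = 5 each), a difference of -0.34 ± 0.62 with a 95% interval of -1.76 to 1.08 (limma adjusted p = 0.993). It was -0.785 without control animal 2 and -0.00206 without control animal 14, and 0.00973 with array weights. The difference between the diet means made up 3.43% of the variance of Msln over the 10 animals and 3.89% of that of Krt19. It made up 31.6% in Krt18 and 54.2% in Krt8, the largest share of the 10 mesothelial probe sets. Such a share is above 0 also where only animals differ, and none of these genes passed after adjustment.

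Wt1 encodes a zinc-finger transcription factor, and its variable probe set stood at 7.39, 7.68, 7.40, 7.55 and 7.44 in the noodle rats, against 7.29, 7.27, 7.44, 7.82 and 7.95 in the controls. Controls 11 and 14 were again the highest, and the groups overlapped below them. The difference was -0.06 ± 0.15 (limma adjusted p = 0.997), and 0.0355 without control animal 14. Lrrn4 encodes a leucine-rich repeat membrane protein and is measured by 3 probe sets, which correlated with each other at a Pearson r of 0.97 to 0.98 over the 10 animals. The brightest of them stood at 6.54, 6.85, 6.43, 7.48 and 7.03 in the noodle rats, against 6.30, 7.0, 7.03, 7.89 and 7.49 in the controls. Control rat 2 was lowest and control rat 11 highest. The 3 probe sets differed by -0.21 to -0.29, each with a limma adjusted p of 0.993. Without control animal 11 they differed by -0.0565, -0.0862 and -0.107, and without control animal 2 by -0.379, -0.484 and -0.491. The 3-prime to 5-prime covariate moved Krt7 to -0.453 ± 0.299, Krt19 to -0.604 ± 0.463, Msln to -0.835 ± 0.807 and Wt1 to -0.203 ± 0.184 (SE). With it Krt8 stood at -0.619 ± 0.227, and the Lrrn4 probe sets stayed near their values, at -0.221, -0.274 and -0.24. The hybridization covariate moved Krt7 to -0.0786 and Krt19 to -0.0067, and the Lrrn4 probe sets to -0.0534, -0.0615 and -0.0704. Krt8 stood at -0.565 ± 0.216 (SE) with the hybridization covariate.

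**Figure D1:**
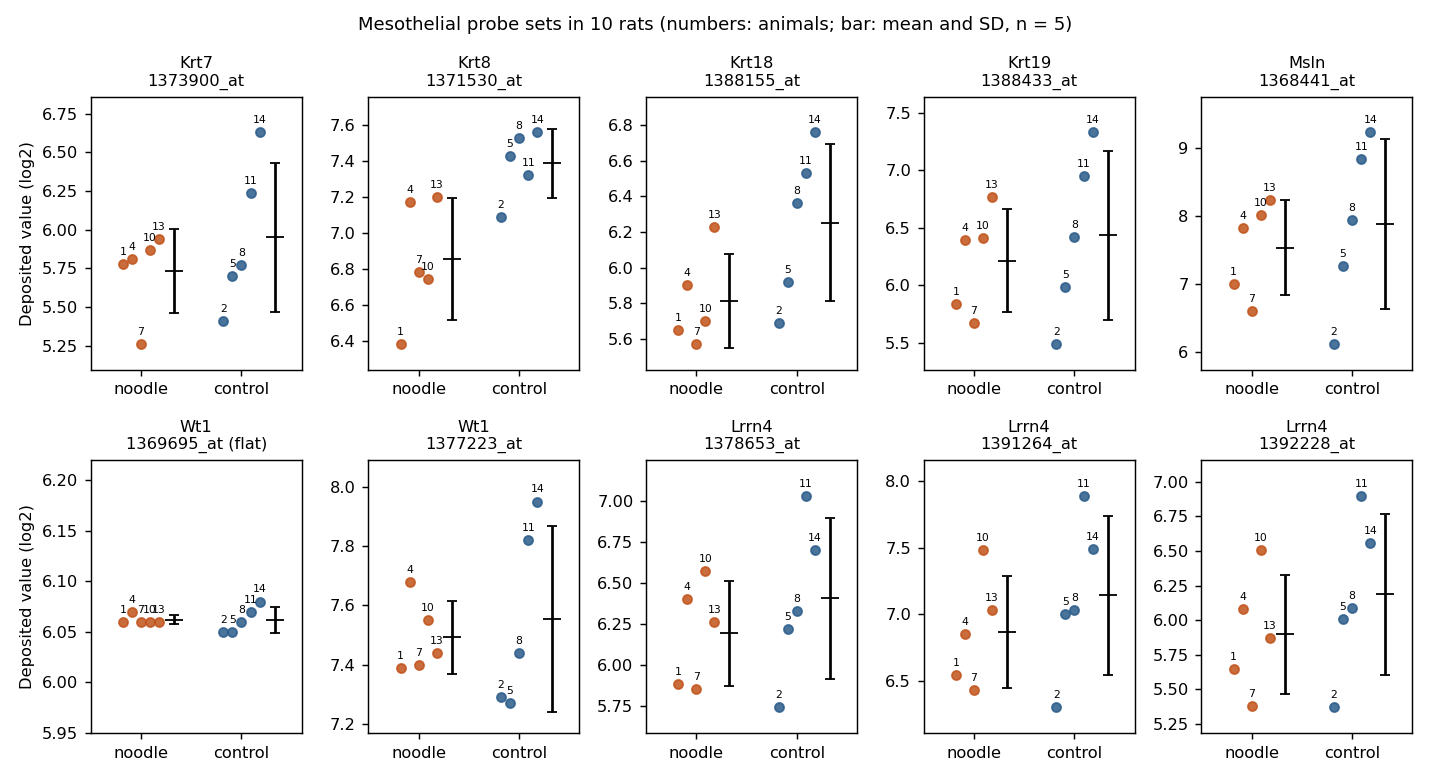
Deposited log2 values (vertical axes, each on its own scale) of the 10 mesothelial probe sets in 5 noodle and 5 control rats, with animal numbers at the points and the mean and SD beside them. In Krt8 3 of 5 noodle rats lie below every control, while in Msln the controls reach from 6.11 to 9.24 and enclose all noodle rats.

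Across the genes, 9 of the 9 variable probe sets had a lower mean in the noodle group, with a median difference of -0.27 and a range of -0.54 to -0.06. A difference below 0 was found in 55.4% of the variable probe sets, whose median was -0.0121, and in 48.7% of all probe sets. The 9 probe sets are not independent, since they varied together from animal to animal as described below, so this count is not 9 separate observations. None of the 10 passed the threshold over all probe sets, where 0% passed (0 of 31042, lowest limma adjusted p of 0.409). At an unadjusted p under 0.05 there was 1 of 10, Krt8, where 4.77% of all probe sets and 8.13% of the variable ones were found, 2.29% and 5.33% being lower in the noodle group. The groups overlapped in all 10 probe sets, and they did not overlap in 0.718% of all probe sets and 0.959% of the variable ones. The median difference was -0.11 with array weights, -0.06 with the hybridization covariate, -0.45 with the 3-prime to 5-prime covariate and -0.17 with the animal number as a covariate, and between -0.48 (without control animal 2) and -0.10 (without control animal 11) when single animals were left out. It was -0.13 without noodle animal 7 and -0.14 without control animal 14. The number of variable probe sets with a lower mean was 7 of 9 with the hybridization controls as a covariate, where Msln differed by 0.112 and Wt1 by 0.0144, 8 of 9 with array weights or without control animal 11, and 7 of 9 without control animal 14.

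**Figure D2:**
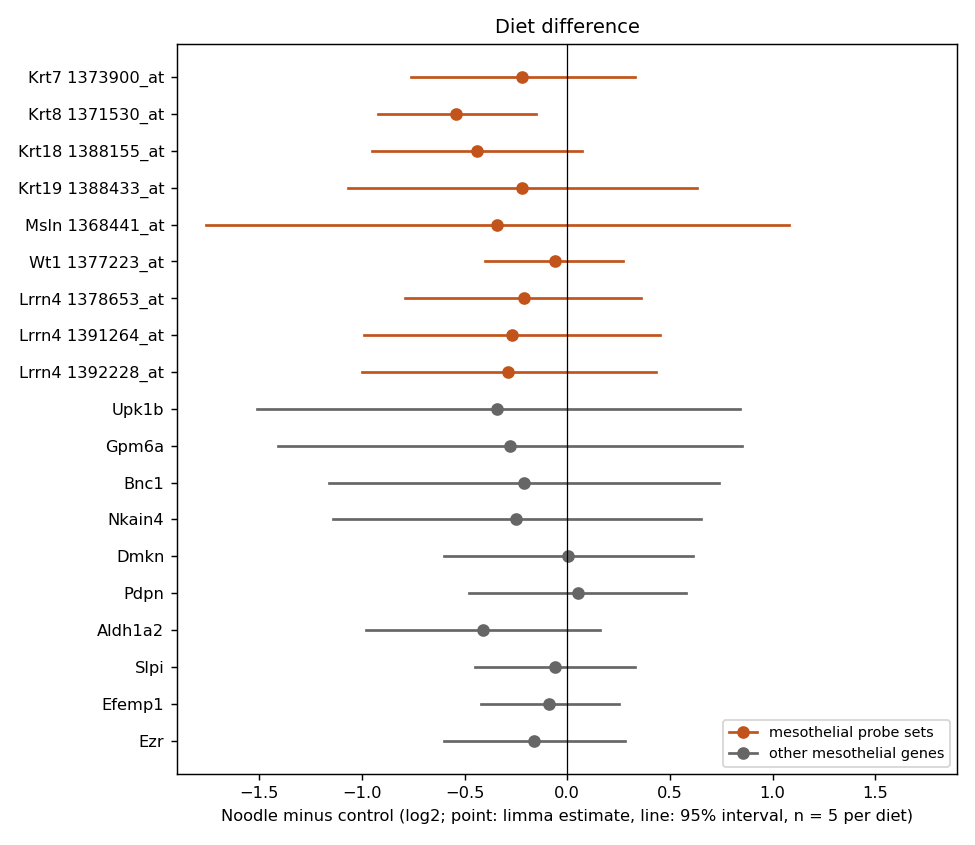
Difference between the diets (noodle minus control, log2, horizontal axis) with its 95% interval for the 9 variable mesothelial probe sets and for 10 other mesothelial genes, 5 rats per diet. The interval of Krt8 lies below 0 before adjustment over all probe sets, and the interval of every other probe set shown includes 0.

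Most of these genes varied together from animal to animal. For this comparison each gene was represented by its brightest variable probe set, which gave 21 pairs of 7 genes over 10 animals. Pearson's r was above 0 in 21 of 21 pairs, with a median of 0.84. After Benjamini-Hochberg adjustment over the 21 pairs, 16 passed in a permutation test of r and 15 in a permutation test of Spearman's rho. Msln and Krt19 were the closest pair, with an r of 0.99 and a rho of 0.99 (permutation p = 1e-05 each, the smallest that the permutations can give). Msln and Krt7 had an r of 0.93 and a rho of 0.93 (adjusted permutation p = 0.00126 and 0.00231). Msln and Lrrn4 had an r of 0.89 and a rho of 0.96 (adjusted permutation p = 0.00294 and 0.00105), and Msln and Wt1 an r of 0.84 and a rho of 0.83 (adjusted permutation p = 0.00454 and 0.00865).

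The pairs were also split by whether they held Krt8. This split was not among the planned tests, so the contrast below may follow from the choice of Krt8. In the 15 pairs without Krt8 r lay between 0.72 and 0.99 and 15 of 15 passed. In the 6 pairs with Krt8 it lay between 0.36 and 0.78 and 1 passed, the pair with its partner Krt18 (r = 0.78, adjusted permutation p = 0.0135, and rho = 0.88, adjusted permutation p = 0.00534). Krt8 and Msln had an r of 0.52 and a rho of 0.56 (adjusted permutation p = 0.146 and 0.114). Control rat 2, lowest of all in Msln and Krt19, had a Krt8 level of 7.09, and noodle rat 1 had the lowest Krt8 at 6.38. Its r of 0.78 to Krt18 was above that of the pairs Krt18 and Wt1, Krt18 and Lrrn4 (0.72 each) and Wt1 and Lrrn4 (0.73). Whether r with Krt8 differs from r among the other genes was not tested.

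**Figure D3:**
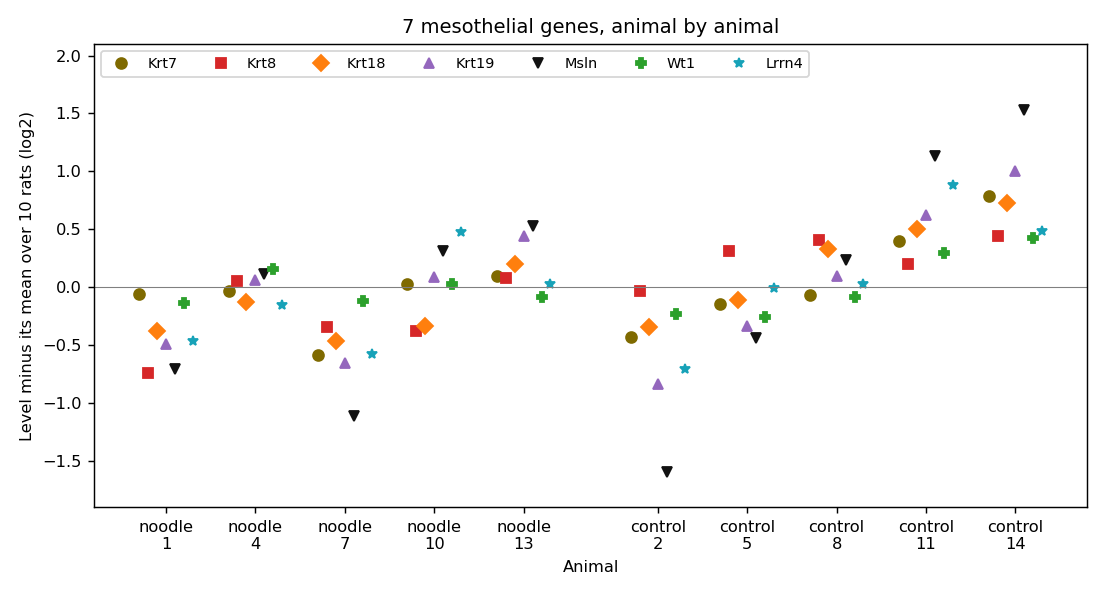
Level of each of 7 mesothelial genes minus its own mean over the 10 rats (log2, vertical axis) in 5 noodle and 5 control rats (horizontal axis), 1 symbol per gene. Controls 11 and 14 lie above 0 and noodle rats 1 and 7 and control rat 2 below 0 in 7 of 7 genes.

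The pairs were then compared with the diet means removed. With the diet means removed, the median r of the 15 pairs without Krt8 was 0.85, and 13 of all 21 pairs passed in an exact permutation test that kept each animal in its diet. Msln and Krt19 had an r of 0.99 there (adjusted exact permutation p = 0.000729), and Krt18 and Krt19 had 0.96 (adjusted exact permutation p = 0.00219). The pairs Krt18 and Wt1, Krt18 and Lrrn4 and Wt1 and Lrrn4, which passed before, did not pass there (adjusted exact permutation p = 0.0598, 0.0623 and 0.0568). These values pool the diets and weigh most the one with the wider spread, which in Msln was the control diet, with an SD of 0.71 in noodle rats and 1.25 in control rats, and 5 animals are too few for an r of each diet. In controls 11 and 14, 7 of 7 genes were above their mean over the 10 animals. In noodle rats 1 and 7 and control rat 2, 7 of 7 were below it. Each diet thus had animals at the low end, and the highest noodle rat in Msln, at 8.24, lay below these 2 controls.

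Part of the co-variation was weaker when few animals were left out. When the 2 animals farthest from the median of the first gene of a pair were left out, r was still above 0 in 21 of 21 pairs, with a median of 0.69, and 8 of the 21 passed in an exact permutation test over 8 animals after adjustment (10 before it). Msln and Krt19 kept an r of 0.99 (exact permutation p = 4.96e-05) and Krt7 and Msln one of 0.93 (exact permutation p = 0.00223). Without controls 11 and 14, Krt18 and Wt1 dropped to 0.12 (exact permutation p = 0.777). Without the same animals Wt1 and Lrrn4 dropped to 0.43 (exact permutation p = 0.288) and Krt18 and Lrrn4 to 0.45 (exact permutation p = 0.27). Leaving out the farthest animals narrows the range and can lower r by itself, so the drop does not show what these relations rest on. With any single animal left out, r in these pairs stayed at or above 0.52, 0.63 and 0.64, in that order. Without control animal 14 alone, 13 of the 21 pairs passed, with a median r of 0.74, and 13 also passed without control animal 2 or 11.

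Array measures were set beside the co-variation. The array medians, which spanned only 6.175 to 6.182, had a Pearson r of 0.89 and a rho of 0.90 to the mean profile of the 7 genes (adjusted permutation p = 0.0006 and 0.0027 over 3 measures), and an r of 0.77 without the 2 farthest animals, control 11 and control 14 (exact permutation p = 0.0295). Centring the arrays on their medians left 16 of 21 pairs past the threshold, and quantile normalization also left 16. The medians differ so little that centring could hardly change r, so this count does not bear on their link to the profile. The reason for that link was not tested. The profile had an r of 0.45 and a rho of 0.47 to the hybridization controls (adjusted permutation p = 0.284 and 0.268), and -0.03 and -0.14 to the 3-prime to 5-prime difference (adjusted permutation p = 0.943 and 0.703). The labels number the animals without saying what the number stands for. In controls 2, 5, 8, 11 and 14 the profile rose in number order, at -1.07, -0.28, 0.25, 1.15 and 1.58. It stood at -0.87, 0.05, -1.06, -0.03 and 0.28 in noodle rats 1, 4, 7, 10 and 13, not in number order. The reason for this order was not tested. When a straight line on the animal number was removed from each gene, 9 of the 21 pairs passed and the median r was 0.67. Msln and Krt19 then had an r of 0.97 (adjusted permutation p = 0.00063), and Krt7 and Krt19 one of 0.91 (adjusted permutation p = 0.00553).

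**Figure D4:**
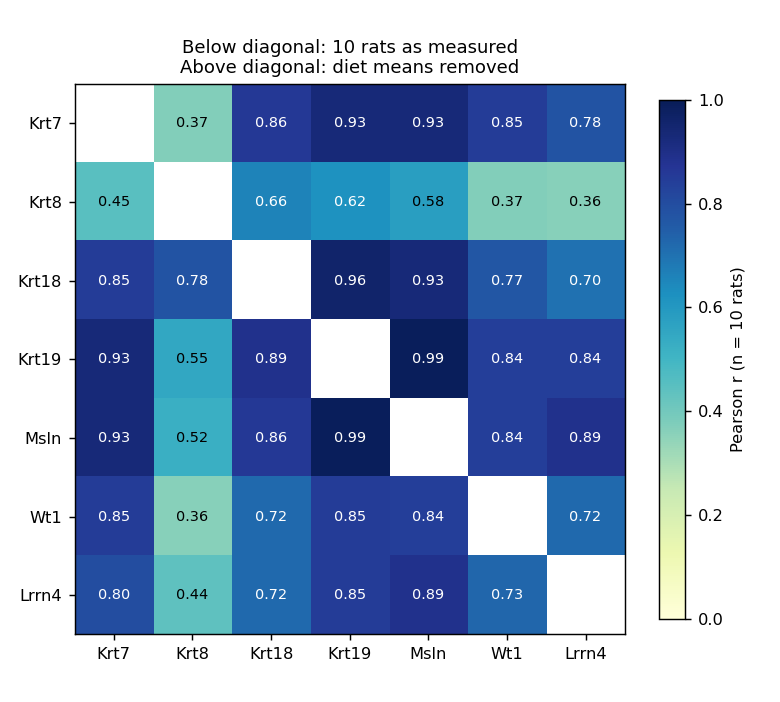
Pearson r between pairs of 7 mesothelial genes over 10 rats, as measured (below the diagonal) and with the diet means removed (above it), darker for higher r. The pairs of Krt19, Msln and Krt7 lie at 0.93 to 0.99 on both sides, and the row and column of Krt8 are the palest.

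Most of the other variable genes known from mesothelium followed the same animals. The mean of the 7 genes, each scaled to its own SD over the 10 animals, was used as a mesothelial profile and compared with 1779 other genes that have a variable probe set. Over these the median r was 0.14, and 37 of them, or 2.08%, had an r above 0.9. A list of 16 further mesothelial genes had 13 measured and 10 variable members, and 6 of those 10 had an r above 0.9. They were Upk1b, a uroplakin, at 0.98, the membrane glycoprotein gene Gpm6a at 0.97, Nkain4 at 0.95, Ezr, whose product ezrin anchors microvilli to the actin cortex, at 0.95, the zinc-finger gene Bnc1 at 0.94, and Aldh1a2, which makes retinoic acid, at 0.91. Pdpn, encoding podoplanin, and the matrix gene Efemp1 had an r of 0.82 and 0.81. The secreted proteins' genes Slpi and Dmkn did not follow, at 0.28 and 0.15. The measured genes Calb2, which encodes calretinin, Rspo1 and Podxl were flat, at mean levels of 6.12, 5.64 and 7.65. The values of r describe likeness and carry no test.

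None of the other mesothelial genes passed between the diets. Upk1b stood at 6.42, 7.18, 6.12, 7.44 and 7.54 in noodle rats 1, 4, 7, 10 and 13, against 5.91, 6.77, 7.20, 8.12 and 8.37 in control rats 2, 5, 8, 11 and 14. As in Msln, the lowest and the highest animal were controls. Upk1b differed by -0.34 ± 0.51 and Gpm6a by -0.28 ± 0.50 (limma adjusted p = 0.993 each, n = 5 each). Aldh1a2 differed by -0.41 ± 0.25 (limma adjusted p = 0.993). These values moved when single controls were left out. Without control animal 14 Upk1b differed by -0.0614, Gpm6a by -0.00642, Nkain4 by -0.0296, Ezr by -0.028 and Aldh1a2 by -0.236, and without control animal 2 Upk1b differed by -0.677 and Gpm6a by -0.587. Of the 10 variable genes in that list 8 were lower and 2 higher in the noodle group, with a median difference of -0.18, and 0 passed over all probe sets or at an unadjusted p under 0.05. The 2 higher ones were Pdpn at 0.05 ± 0.23 and Dmkn at 0.00388 ± 0.27. A difference below 0 was found in 55.4% of all variable probe sets. Most genes of the list varied with the mesothelial profile, so these counts are not separate observations. Bnc1 and Efemp1 turned to 0.028 and 0.00226 without control animal 14.

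The 10 genes most like the mesothelial profile had an r of 0.97 to 0.99. They were Gcnt2, a glycan-branching enzyme, Lsr, a lipoprotein receptor found at epithelial junctions, the chloride channel gene Clic3, Fmod, a collagen-binding proteoglycan, Pkhd1l1, Upk1b, the cadherin gene Cdh11, the serotonin transporter gene Slc6a4, Igfbp2, a binding protein of insulin-like growth factors, and Gpm6a. Gcnt2 stood at 6.97 to 7.53 in noodle rats and 7.06 to 8.03 in controls. Igfbp2 stood at 6.49 to 8.03 in noodle rats and 6.55 to 9.53 in controls. Control 14 was the highest animal in both. Since these genes were chosen for following the profile, their order of animals and their diet means come with that choice and are not separate observations. Gcnt2 differed by -0.24 ± 0.20 and Igfbp2 by -0.65 ± 0.56 (limma adjusted p = 0.993 each, n = 5 each), and by -0.122 and -0.281 without control animal 14.

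Genes of epithelial junctions followed in part, and other keratins were mostly flat. Of 20 measured junction and identity genes 4 were variable. The desmosome genes Dsp and Dsg2 had an r of 0.97 and 0.96 to the mesothelial profile, Jup, which encodes plakoglobin, had 0.71, and the tight junction gene Cldn1 had -0.36. Of 15 other keratins measured 3 were variable, with Krt13 at 0.90, Krt14 at 0.73 and Krt79 at 0.02, and 15 of 15 had a mean level below the array's median. Krt14, a keratin of basal epithelial cells, differed by -0.354 ± 0.185 between the diets (limma adjusted p = 0.993).

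Marker lists of the other cell types of fat had a median r near 0. The median r to the mesothelial profile was -0.07 over 10 variable adipocyte markers, 0.06 over 9 of fibroblasts and adipose progenitors, 0.02 over 6 of endothelium, -0.06 over 5 of smooth muscle and pericytes, -0.10 over 10 of macrophages and 0.13 over 4 of red blood cells. Single genes, named after their values were seen, lay further out, with Dpp4, a surface peptidase of adipose progenitors, at 0.76 and the glycerol phosphate dehydrogenase gene Gpd1 at -0.80. The mean level of the 10 variable adipocyte markers was 10.88 to 11.05 in noodle rats and 10.95 to 11.06 in controls, the other 8 measured being flat. The mean level of the 7 mesothelial genes was 6.24 to 6.98 in noodle rats and 6.20 to 7.57 in controls. Macrophage markers had a higher mean in the noodle group in 10 of 10 variable members. Red blood cell markers had a lower one in 4 of 4. None passed the threshold over all probe sets. A difference below 0 was found in 55.4% of all variable probe sets. Markers in 1 list can vary together, so these counts are not separate observations. The part of either list in the mesothelial values was not tested.

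**Figure D5:**
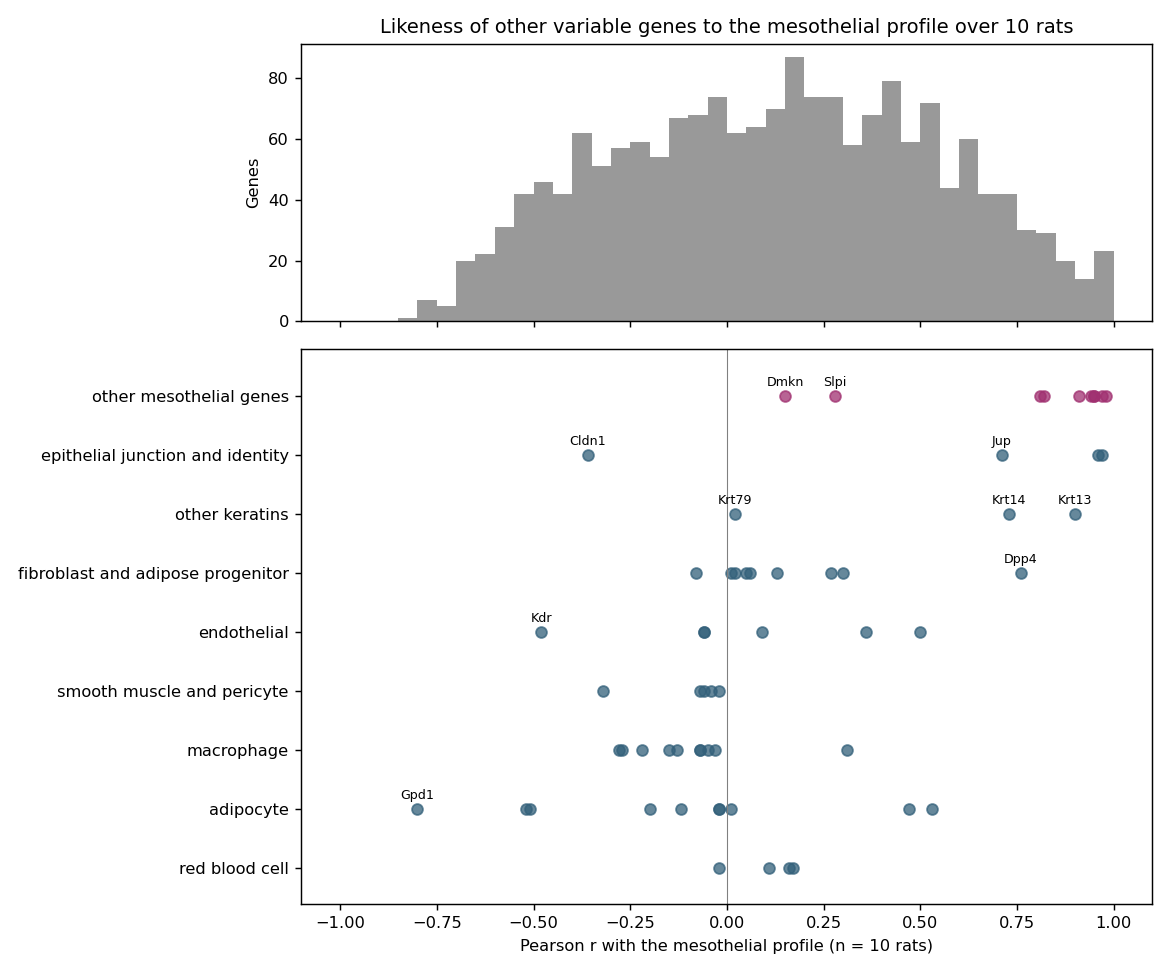
Pearson r over 10 rats between the mesothelial profile and 1779 other variable genes (upper panel, number of genes) and the variable members of 9 marker lists (lower panel, 1 point per gene). Of 10 other mesothelial genes 6 lie above 0.9, while the adipocyte, fibroblast, endothelial, smooth muscle, macrophage and red blood cell lists have medians between -0.10 and 0.13.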

How the data were processed

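White adipose tissue of 10 rats was profiled on 1 array each, with groups taken from the labels. The deposited table, the authors' processed values, was taken as log2 from its range. Neither the background correction, the summarisation, the normalization nor the log base is stated in the sources used here. The 57 array control probe sets were left out of the tests. The comparison, noodle minus control, was fitted two-sided by lmFit and eBayes of limma 3.58.1 under R 4.3.3, with Benjamini-Hochberg adjustment over 31042 probe sets and a threshold of 0.05. Exact permutation tests used all 252 assignments of the arrays, which can give p = 0.0079 at the least. Correlations used 100000 permutations. The number of arrays limits the precision. The members, lists and tests were chosen with earlier results of these data known. The named genes were all members, the 10 genes with the highest r to the mesothelial profile and the variable genes of the list of other mesothelial genes. Marker lists covered mesothelium, other keratins, epithelial junctions, epididymis, pancreas, urothelium, adipocytes, fibroblasts, endothelium, smooth muscle, macrophages, lymphocytes, red blood cells and brain. The 8 measured lymphocyte markers were all flat. Promoters were found for 5 of the 8 genes. The fit was tested on simulated data. Noise was drawn independently for each probe set, and the changed probe sets were picked at random among the variable ones. There a change of 0.5 log2 was found in 18% of the changed probe sets, 1 log2 in 83% and 2 log2 in 94%. The median SD of the variable probe sets was 0.191, against 0.227 to 0.976 in the variable mesothelial ones. These shares therefore do not hold for the mesothelial probe sets, which also varied together. Of the calls 4.14% were false. Most changes of 0.5 log2 were thus missed in that simulation.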

Additional observations from a re-analysis of the deposited data

Results flagged for a closer look

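In groups of 5 animals, 58 were examined over the variable mesothelial probe sets, the other named genes and 2 array measures for 1 animal far from the other 4. This was found once, where chance gives about 2.9 (about 1 in 20). It was Krt7, which had a level of 5.26 in noodle animal 7 while noodle animals 1, 4, 10 and 13 had 5.78 to 5.94.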

How the results depend on the processing

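No paired analysis was possible because no animal number occurs in both diets and the pairs of the pair-feeding are not named. No mesothelial probe set passed over all probe sets under any alternative run. Leaving out control animal 14 brought 1 probe set of the array past the threshold, the flat one of Emg1 (limma adjusted p = 0.0112, named after its value was seen); without each of the other animals the count was 0. The count of correlated pairs (16 of 21) was 8 without the 2 animals farthest from the median, 9 with the animal number regressed out, an alternative added after seeing the data, and 13 to 16 without single animals. The 3-prime to 5-prime difference kept its direction, at -0.117 with quantile normalization (exact permutation p = 0.0714). It was -0.144 to -0.0848 without single animals (exact permutation p from 0.0159 to 0.103). Of the mesothelial probe sets, 4 changed sign. Msln was 0.00973 with array weights and 0.112 with the hybridization covariate. The variable Wt1 probe set was 0.0144 with the hybridization covariate and 0.00221 to 0.0355 without control 11 or 14, and Krt19 was 0.00497 without control 14. The flat Wt1 probe set, at 0.00133 in all animals, was -0.00516 with the 3-prime to 5-prime covariate and -0.000287, -0.000977 and -0.0016 without noodle 4, control 2 and control 5. Among the other named genes, Gpm6a was 0.0123 with array weights, Bnc1 0.028 and Efemp1 0.00226 without control 14, and Slpi 0.0191 with array weights, 0.0546 with the hybridization covariate, 0.0642 without noodle 4 and 0.00304 without control 14. Pdpn was -0.205 with the 3-prime to 5-prime covariate and -0.126, -0.0218 and -0.00532 without control 2, noodle 4 and control 5. Dmkn was -0.113 with array weights, -0.26 with the 3-prime to 5-prime covariate, -0.0209 with the animal number, and -0.147, -0.113, -0.111, -0.0126 and -0.0171 without noodle 1, noodle 4, control 5, control 8 and control 11. Without single animals the differences ran from -0.455 to 0.00497 for Krt19, -0.134 to 0.0355 for the variable Wt1 probe set, -0.0016 to 0.00513 for the flat one, -0.415 to 0.028 for Bnc1, -0.147 to 0.139 for Dmkn, -0.126 to 0.211 for Pdpn, -0.155 to 0.0642 for Slpi and -0.16 to 0.00226 for Efemp1. The cause of these turns was not tested. Of the variable mesothelial probe sets 6 remained when the dimmest 50% of the array were left out, and 6 of those 6 were lower in the noodle group.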
